A study of Mus musculus with 15 samples.

Results

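The NMDA receptor subunit genes are 7 of the 35976 genes in the count table: Grin1, Grin2a, Grin2b, Grin2c, Grin2d, Grin3a and Grin3b. They were taken by their symbols, and each symbol had 1 row. RNA was sequenced from nuclei sorted out of the ventral tegmental area (VTA), the midbrain region whose dopamine neurons project to the striatum and cortex. All mice were male heterozygous DAT-Cre animals, given as 8 to 12 weeks old, in which Cre is knocked in at the dopamine transporter gene Slc6a3. Every group had received the Cre-dependent virus AAV5-DIO-KASH-HA in the VTA, with 14 days allowed for expression before self-administration work began, which puts an HA tag on the nuclear envelope of Cre-expressing cells, and every group was food trained for 7 days. Each sample combined VTA punches of 2 mice.

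HA-positive (dopaminergic) nuclei were collected after the last food session (n = 4), after the last cocaine session (maintenance, n = 3) or after 21 days of forced abstinence in the home cage (abstinence, n = 4). HA-negative nuclei were collected from food-trained mice (n = 4). Maintenance and abstinence mice had worked for intravenous cocaine in daily 1 h sessions, 5 at 0.3 mg/kg per infusion and 10 at 1.0 mg/kg per infusion. Food-trained mice had no cocaine, so food-trained and cocaine mice also differ in catheter surgery and in the time since injection. The 21 days of abstinence add to the time since injection, so abstinence and maintenance mice differ in that too. The design asks how the sorted populations differ and how dopaminergic nuclei differ between the 3 stages.

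NMDA receptors are glutamate-gated cation channels that pass calcium. In their usual form they conduct mainly when glutamate and a co-agonist, glycine or D-serine, are bound and depolarization has expelled magnesium from the pore. Each channel needs the GluN1 subunit, encoded by Grin1, which binds the co-agonist. The GluN2 subunits (Grin2a to Grin2d) bind glutamate and set the channel's kinetics and magnesium block, and the GluN3 subunits (Grin3a, Grin3b) bind glycine and lower calcium entry. In VTA dopamine neurons these receptors are known for their part in burst firing and in the synaptic plasticity that follows cocaine exposure.

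On GRCm38 (GENCODE M21 annotation), Grin1 lies at chr2:25291181-25319187, Grin2a at chr16:9567898-9995560, Grin2b at chr6:135713233-136173511 and Grin2c at chr11:115249169-115267243, all on the minus strand. Grin2d lies at chr7:45831883-45878378 and Grin3a at chr4:49661611-49845744, also on the minus strand. Grin3b lies at chr10:79970715-79977190 on the plus strand. Its exons share 1059 bases with exons of Tmem259 on the opposite strand, and use of strand in the counting was not stated. Tmem259 held 1748 to 7691 counts per library against 0 to 755 for Grin3b, so Grin3b values may hold reads of Tmem259 and are uncertain. Grin3b was at 0 in 2 libraries in which Tmem259 was at 107 and 59.7 CPM. Grin1 shares 1307 exonic bases with its antisense gene Grin1os, which held only 2 to 98 counts against 6208 to 43907 for Grin1.

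The libraries held 25813697 to 59046618 counts. Slc6a3 was at 3010 ± 1031 CPM (counts scaled to a common library size; SD, n = 4) in food-trained HA-positive nuclei and 91.5 ± 18.9 (n = 4) in HA-negative nuclei, in the direction of their labels. The HA-negative nuclei are labelled as neurons, yet the summed CPM of 8 oligodendrocyte markers was 8972 to 22720 there against 1771 to 2788 in food-trained dopaminergic nuclei, and that of 7 astrocyte markers 1548 to 3176 against 774 to 981, with 0 markers of either list absent. They are called HA-negative nuclei here, and the part of glia in any difference from them was not tested. Libraries also differed in how counts depended on transcript GC content. The slope of log2 CPM per percent GC was -0.0377 to -0.0224 in the 3 maintenance libraries and -0.0166 to 0.0205 in the other 8 dopaminergic ones. HA-negative replicate 2 had a slope of -0.0248 and the other 3 HA-negative libraries 0.021 to 0.0323. In dopaminergic nuclei this property coincides with the maintenance stage, so the stage and the GC dependence of its libraries cannot be told apart.

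Grin1, the obligatory subunit, was detected in every library. In food-trained dopaminergic nuclei its 4 values were 519, 312, 306 and 572.5 CPM, and in HA-negative nuclei 408, 165, 383.5 and 508 CPM. Maintenance nuclei had 353, 220.1 and 151 CPM, and abstinence nuclei 502, 701, 797 and 285 CPM. The lowest of all 15 values was maintenance replicate 3 and the highest abstinence replicate 3, and every pair of groups overlapped.

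Grin2a, whose subunit gives NMDA receptors fast decay and is the GluN2 subunit that increases as synapses mature, had 45.1, 37.9, 27.1 and 55.5 CPM in food-trained dopaminergic nuclei. HA-negative nuclei had 93.8, 48.4, 109.7 and 88.5 CPM. HA-negative replicate 2 was the single HA-negative library below the highest food-trained dopaminergic one. Maintenance nuclei had 39.3, 31.8 and 42.5 CPM and abstinence nuclei 36.2, 77.1, 57.4 and 57.7 CPM, overlapping each other and the food-trained nuclei.

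Grin2b, whose subunit gives slower decay and binds CaMKII with high affinity, was the most even member across groups. Its group means were 187 ± 50.8 CPM (SD, n = 4) in food-trained dopaminergic, 198 ± 50.9 (n = 4) in HA-negative, 184 ± 1.25 (n = 3) in maintenance and 177 ± 32.8 (n = 4) in abstinence nuclei. The 3 maintenance libraries lay between 182.7 and 185.0 CPM, inside the range of the other groups.

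Grin2c, whose subunit forms receptors with weak magnesium block and is known from cerebellar granule cells and astrocytes, had 16.7, 30.6, 11.1 and 19.97 CPM in food-trained dopaminergic nuclei. Its 3 maintenance values were 2.19, 9.80 and 5.28 CPM, from 106, 325 and 217 counts. Abstinence nuclei had 36.9, 18.6, 35.5 and 45.5 CPM, and HA-negative nuclei 44.7, 15.4, 53.9 and 30.9 CPM. Every maintenance value lay below every value of the other 3 groups.

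Grin2d, the slowest of the GluN2 subunits and typical of midbrain and interneurons, ranged from 15.3 to 44.0 CPM in food-trained dopaminergic, 10.1 to 25.0 in HA-negative, 17.9 to 40.6 in maintenance and 15.8 to 34.8 in abstinence nuclei. Grin3a, whose subunit is known from developing synapses, ranged from 92.1 to 199 CPM in food-trained dopaminergic nuclei, 109 to 131 in HA-negative, 113 to 241 in maintenance and 62.2 to 179 in abstinence nuclei. Grin3b, known from motor neurons, stayed at 0 to 14.0 CPM in all 15 libraries and was at 0 in food-trained replicate 2 and maintenance replicate 1. For these 3 genes no group lay apart from the food-trained dopaminergic one.

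**Figure D1:**
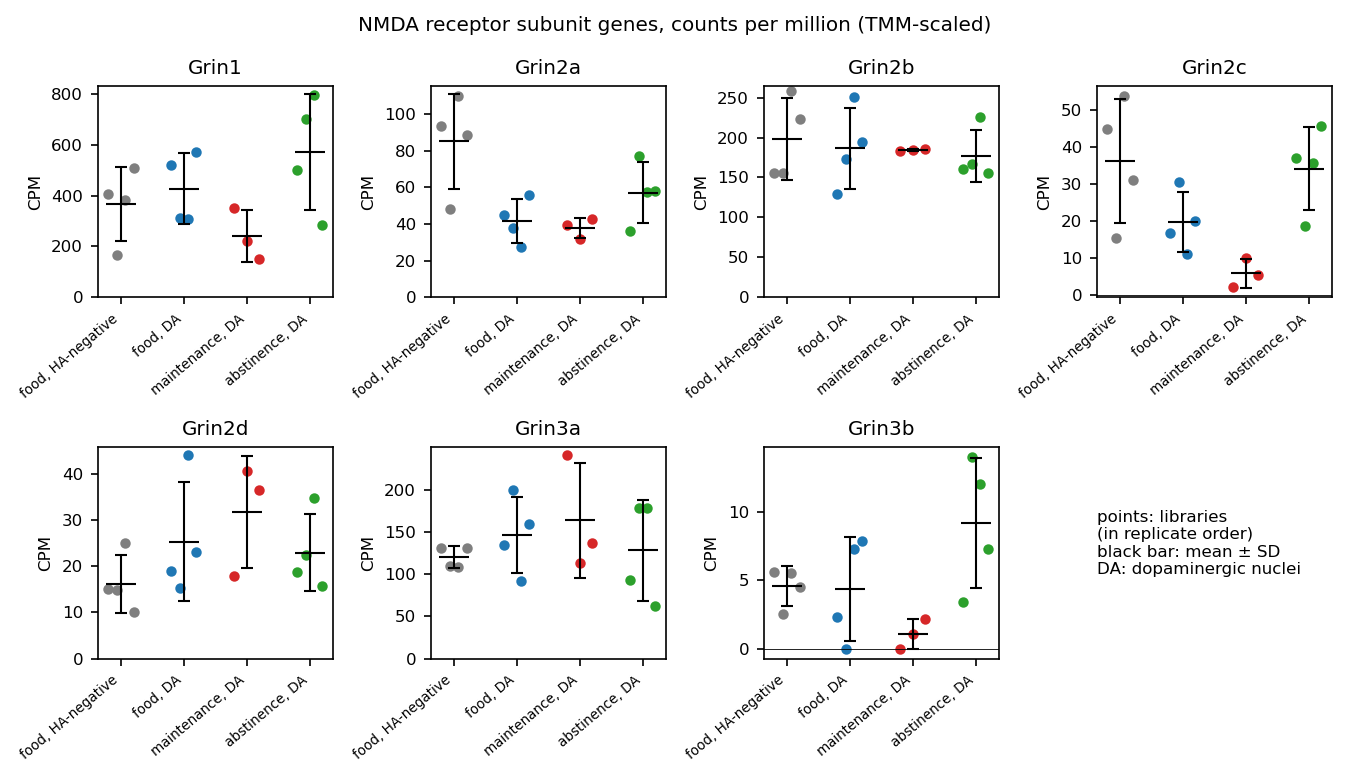
CPM of the 7 NMDA receptor subunit genes, 1 panel per gene on a linear axis from 0, by group. Each point is 1 library, and the black bars are the mean ± SD. The 3 maintenance values of Grin2c (2.19 to 9.80 CPM) sit below all other Grin2c values, and the groups overlap for Grin1, Grin2b, Grin2d and Grin3a.

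Levels of different genes were compared per kilobase of the longest annotated transcript. Grin1 had the highest level in 15 of 15 libraries, at 99.9 ± 32.4 CPM per kilobase (SD, n = 4) in food-trained dopaminergic nuclei. Grin3a followed at 19.6 ± 5.99 and Grin2b at 7.76 ± 2.11, and the ranges of these 3 genes were apart. Below them came Grin2d at 4.66 ± 2.37, Grin2c at 4.003 ± 1.67, Grin2a at 2.83 ± 0.818 and Grin3b at 1.33 ± 1.17 CPM per kilobase, each overlapping its neighbours in that order. In HA-negative nuclei the order below Grin2b (8.24 ± 2.12) was instead Grin2c (7.40 ± 3.43), Grin2a (5.81 ± 1.78) and Grin2d (2.99 ± 1.15), with overlapping ranges between neighbours. Grin2c was second lowest in maintenance nuclei, at 1.176 ± 0.782 (n = 3), with its range apart from that of Grin2a at 2.59 ± 0.374.

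The length used changes this order, because Grin2b and Grin2a have long untranslated regions. Per kilobase of coding sequence, Grin2b (42.0 ± 11.4, n = 4) and Grin3a (43.0 ± 13.2) overlapped in food-trained dopaminergic nuclei, and Grin2a (9.43 ± 2.73) had a higher mean than Grin2d (6.38 ± 3.24) and Grin2c (5.27 ± 2.20). Grin1 remained first, at 148.5 ± 48.1 CPM per kilobase of coding sequence. In maintenance nuclei the ranges of Grin2c and Grin2a stayed apart with coding lengths. Per kilobase of all annotated exons joined they overlapped, with Grin2c up to 1.95 and Grin2a from 1.77.

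The make-up of the GluN2 pool was described as each gene's share of the summed per-kilobase level of the 4 GluN2 genes in a library, with no test. Grin2b held the largest mean share in all 4 groups, from 32.7% ± 2.84 (SD, n = 4) in abstinence to 45.2% ± 7.81 (n = 3) in maintenance nuclei. In abstinence and in HA-negative nuclei its range overlapped that of Grin2c, and it was above Grin2c in only 2 of 4 libraries of each. Grin2a held 15.2% ± 5.43 in food-trained dopaminergic nuclei (8.18% to 20.1%) and 23.7% ± 2.45 in HA-negative nuclei (21.1% to 25.8%). These ranges were apart, and overlapped with coding lengths (up to 21.2% and from 20.4%) and with raw counts (up to 21.5% and from 20.6%). Grin2c held 21.4% ± 9.498 in food-trained, 6.47% ± 3.62 in maintenance and 31.1% ± 10.1 in abstinence nuclei. Its maintenance range (3.19% to 10.4%) met the lower end of the food-trained range (10.0% to 33.2%) and lay below the abstinence range (18.9% to 41.1%). Grin2d held 23.6% ± 8.77, 32.9% ± 8.24 and 18.6% ± 4.66 in the same 3 stages and 12.5% ± 4.01 in HA-negative nuclei. With coding lengths, Grin2b took 65.8% of the pool in food-trained dopaminergic nuclei, and Grin2c took 8.74%, 2.55% and 13.8% across the 3 stages.

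**Figure D2:**
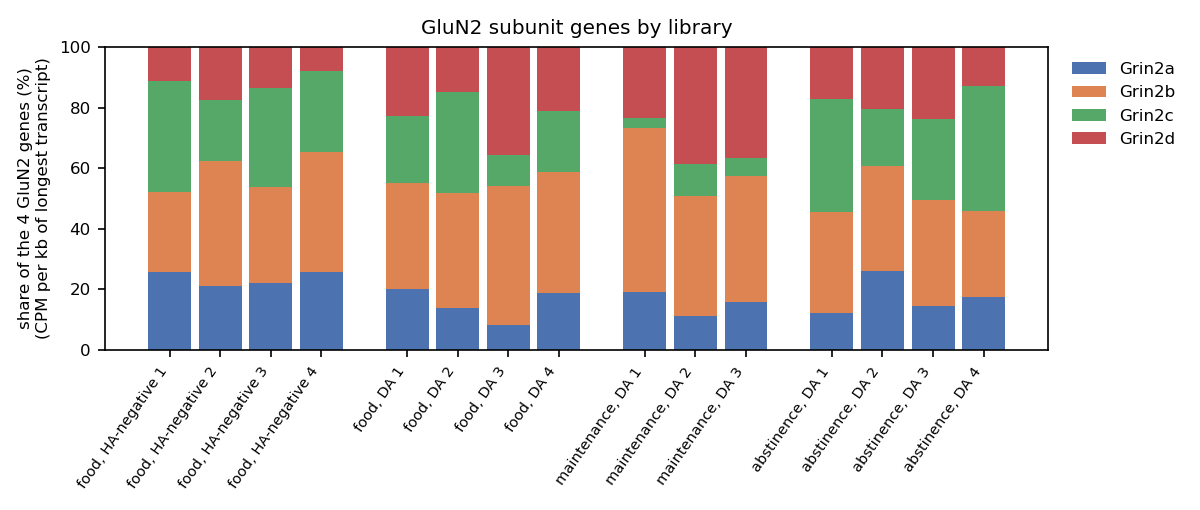
Share of each GluN2 gene in the summed CPM per kilobase of longest transcript of Grin2a, Grin2b, Grin2c and Grin2d, in percent, as 1 stacked bar per library, ordered by group. The Grin2c share is 3.19% to 10.4% in maintenance libraries and 18.9% to 41.1% in abstinence libraries.

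Between dopaminergic and HA-negative nuclei of food-trained mice, 0 of the 7 subunit genes passed edgeR's quasi-likelihood test at an adjusted p under 0.05, and all 7 were tested. Of the 19786 genes tested, 12.8% passed. The 7 groups of values all overlapped, against 26.0% of genes tested whose groups were apart. With 1 of 7 at an unadjusted p under 0.05, the members' share compared with 24.3% of all genes. The members' median log2 difference was -0.09, against -0.21 over all genes tested.

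Grin2a came nearest. Dopaminergic nuclei averaged 41.4 ± 12.0 CPM and HA-negative nuclei 85.1 ± 26.1 CPM (SD, n = 4 each), a log2 difference of -1.06 (SE 0.31, 95% interval -1.78 to -0.35; edgeR adjusted p = 0.059). Without HA-negative replicate 2, the library with the divergent GC slope, the difference was -1.26 (edgeR adjusted p = 0.0197, 12.0% of genes called), and without food-trained dopaminergic replicate 4 it was -1.25 (edgeR adjusted p = 0.0374, 18.0% called). DESeq2 gave -1.04 with an adjusted p of 0.0167, in a run that called 19.5% of genes. It also passed with a minimum of 10 counts in every library (edgeR adjusted p = 0.0444, 13.5% called) and in a fit of all 15 libraries (edgeR adjusted p = 0.0452, 9.02% called). Of 11 other settings and 8 fits with 1 library left out, these 5 brought Grin2a past the threshold. It did not pass without HA-negative replicate 1, 3 or 4 (edgeR adjusted p = 0.16, 0.18 and 0.129), the difference being -0.89 without replicate 3. Nor did it pass with a linear GC correction (-1.13, edgeR adjusted p = 0.0706) or with the replicate number as a block (-1.04, edgeR adjusted p = 0.138). The log2 ratio of Grin2a to Grin1 counts within a library was -3.36 ± 0.22 (-3.53 to -3.04) in dopaminergic and -2.05 ± 0.35 (-2.52 to -1.77) in HA-negative nuclei. It was the 1 of 5 ratios of members to Grin1 whose ranges were apart, and 19.7% of genes had ratios to Grin1 that were. Grin3b was left out of the member ratios to Grin1, here and in the stage comparisons. The ratio of Grin2a to Grin2b overlapped, at -3.21 to -1.51 and -1.69 to -0.73. In bulk nuclei, fewer cells expressing a gene and less RNA per cell cannot be told apart.

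The remaining members did not differ beyond the spread between libraries. Grin1 differed by 0.20 on the log2 scale (95% interval -0.62 to 1.02; edgeR adjusted p = 0.811) and Grin2b by -0.11 (-0.71 to 0.48; edgeR adjusted p = 0.855). Grin2c differed by -0.92 (-1.95 to 0.12; edgeR adjusted p = 0.267), Grin2d by 0.61 (-0.40 to 1.62) and Grin3a by 0.26 (-0.28 to 0.80). Grin3b differed by -0.09 (-3.10 to 2.93). The intervals of Grin1, Grin2c, Grin2d and Grin3b include changes of more than 1 log2 unit.

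Of 78 genes that scaffold, modify or traffic NMDA receptors, carry their signal, or supply and clear their co-agonists, 4 were higher and 9 lower in dopaminergic than in HA-negative nuclei, which is 16.7% of the list. Of all genes tested, 3.63% were higher and 9.17% lower. The co-agonist genes held 4 of these 13. The glycine transporter GlyT1 gene Slc6a9 fell from 332 ± 112 CPM in HA-negative to 129 ± 27.9 CPM in dopaminergic nuclei, a log2 difference of -1.38 (edgeR adjusted p = 0.0118). Slc7a10, the Asc-1 exchanger of glycine and D-serine, was at 184.5 ± 35.7 against 31.3 ± 15.9 CPM, a log2 difference of -2.58 (edgeR adjusted p = 0.00555). The amino acid transporter gene Slc38a5 had 0 counts in all 4 dopaminergic libraries and was at least 77.7-fold lower there, counted against a floor of 3 counts per library. Slc1a4, a neutral amino acid transporter that carries serine, was higher in dopaminergic nuclei by 1.23.

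Postsynaptic scaffold genes accounted for 4 of the 9 lower genes. Dlgap1, which binds PSD-95, was lower by 1.45 on the log2 scale and Dlg2, which encodes PSD-93 and binds GluN2 tails, differed by -1.03. Akap9, an anchor for kinases, differed by -1.08. Among signalling genes, the exchange factors Kalrn (-1.36) and Rasgrf1 (-1.17) were lower in dopaminergic nuclei, and Rasgrf2 was higher by 0.84. Ap2m1, a subunit of the clathrin adaptor that takes up receptors, was higher by 0.86 and the phosphatase gene Ppp1ca by 0.73. None of the 15 kinase genes passed edgeR's test, with 4 at an unadjusted p under 0.05 (24.3% of all genes). DESeq2 called 2 of them (19.5% of all genes) and limma-voom 3 (21.6%). Over the whole list DESeq2 called 10 higher and 12 lower, in a run that called 19.5% of all genes, and limma-voom 3 higher and 14 lower, with 21.6% of all genes called. Markers of glia and vascular cells moved with the same contrast. Besides the sums given above, those of 5 oligodendrocyte precursor markers were 227 to 373 CPM in HA-negative and 16.7 to 79.2 CPM in dopaminergic nuclei, those of 6 microglia markers 1269 to 2393 and 454 to 763 CPM, and those of 5 vascular markers 213 to 404 and 0 to 72.8 CPM. Of the 7 astrocyte markers, 2 had the higher mean in dopaminergic nuclei. Sums of 4 GABA neuron markers overlapped, at 693.5 to 1465 CPM in HA-negative and 446 to 1107 CPM in dopaminergic nuclei. Those of 3 glutamate neuron markers also overlapped, at 375 to 642 and 169 to 676 CPM. On average, 1 of the 4 and 2 of the 3 were higher in dopaminergic nuclei. The part of any of these cells in the differences was not tested.

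Between maintenance and food training, 0 of the 7 members passed edgeR's test, in a comparison where 0.131% of 19060 genes did. Grin2c was the single member at an unadjusted p under 0.05, a level reached by 11.6% of all genes. Its mean was 5.76 ± 3.83 CPM (SD, n = 3) in maintenance and 19.6 ± 8.18 CPM (n = 4) in food-trained nuclei, a log2 difference of -1.77 (SE 0.59, 95% interval -3.04 to -0.50; edgeR adjusted p = 0.324). It was also the single member whose groups did not overlap, as was the case, with maintenance lower, for 4.21% of genes. DESeq2 placed Grin2c past the threshold (-1.79, adjusted p = 0.0386) in a run that called 5.13% of genes. Leaving out 1 library at a time, the difference ranged from -2.41 to -1.38. Oligodendrocyte markers moved with this contrast: their summed CPM was 1164 to 1751 in maintenance and 1771 to 2788 in food-trained nuclei, with 6 of 8 markers lower on average and 4 of them apart. Sums of the 7 astrocyte markers overlapped, at 795 to 1021 and 774 to 981 CPM, and 0 markers of either list were absent. The part of glia in the Grin2c difference was not tested.

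Grin1 had a mean of 241 ± 102.5 CPM in maintenance and 427 ± 138 CPM in food-trained nuclei, a log2 difference of -0.82 (95% interval -1.67 to 0.02; edgeR adjusted p = 0.441). Grin2b differed by -0.02, with an interval of -0.56 to 0.52. Grin2a differed by -0.13, Grin2d by 0.33 (-0.70 to 1.35) and Grin3a by 0.16. Grin3b, at 1.10 ± 1.09 against 4.38 ± 3.82 CPM, differed by -1.99 with an interval of -5.85 to 1.88. With 1 library left out it ranged from -2.97, without maintenance replicate 3, to -1.40.

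Between abstinence and maintenance, which share the maintenance libraries with the comparison just given, 0 of the 7 members passed edgeR's test, and 0.178% of genes did. Grin2c was at 34.1 ± 11.3 CPM (SD, n = 4) in abstinence, a log2 difference of 2.57 from maintenance (SE 0.61, 95% interval 1.26 to 3.89; edgeR adjusted p = 0.15). It ranked 121 of 19060 genes by p. With 1 library left out it ranged from 2.179 to 3.201, the highest without maintenance replicate 2. Astrocyte markers also differed in this contrast, with 5 of 7 lower on average in abstinence, 2 of them apart, and overlapping sums of 577 to 856 and 795 to 1021 CPM. Oligodendrocyte sums overlapped, at 1133 to 2021 and 1164 to 1751 CPM. The part of glia was not tested. Grin1 was at 571 ± 227 CPM in abstinence, a difference of 1.24 from maintenance (SE 0.40; edgeR adjusted p = 0.347), with overlapping values. These 2 genes were at an unadjusted p under 0.05, as were 9.92% of all genes. Grin2c and Grin3b lay wholly above maintenance in abstinence, as did 7.56% of genes. DESeq2 called both Grin1 (1.21, adjusted p = 0.0353) and Grin2c (2.55, adjusted p = 0.000455), in a run that called 4.16% of genes.

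Of the other members, Grin2a differed by 0.59 (edgeR adjusted p = 0.629), Grin2b by -0.06 (95% interval -0.60 to 0.48), Grin2d by -0.47 and Grin3a by -0.36. Grin3b, at 9.18 ± 4.75 CPM in abstinence, differed by 3.05 with an interval of -1.01 to 7.12. With 1 library left out it ranged from 2.47 to 4.04, the highest without maintenance replicate 3, and limma-voom gave 4.16. Within libraries, the log2 ratio of Grin3a to Grin1 counts was -0.96 to -0.14 in maintenance and -2.42 to -1.97 in abstinence. This was the 1 of 5 ratios of members to Grin1 whose ranges were apart between abstinence and maintenance, as were the ratios to Grin1 of 19.2% of genes.

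Between abstinence and food training, 0 of the 7 members passed edgeR's test, as did 0.0% of all 19060 genes tested. At an unadjusted p under 0.05 the members again counted 0, against 4.3% of genes, and every member's groups overlapped. Over all genes, 3.32% of groups were apart, 2.37% with abstinence higher. The log2 ratio of Grin3a to Grin1 counts was -2.42 to -1.97 in abstinence and -1.94 to -0.65 in food-trained nuclei, the 1 of 5 member ratios to Grin1 with ranges apart, as were 1.86% of genes' ratios to Grin1. Grin2c differed by 0.80 (95% interval -0.32 to 1.92), Grin2a by 0.46 (-0.20 to 1.13) and Grin1 by 0.42. Grin2b differed by -0.08, Grin2d by -0.14, Grin3a by -0.20 and Grin3b by 1.07, which was 2.315 with limma-voom. DESeq2 also called 0 members, and 0.735% of genes. The median of the 7 differences was 0.42, against 0.04 over all genes.

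**Figure D3:**
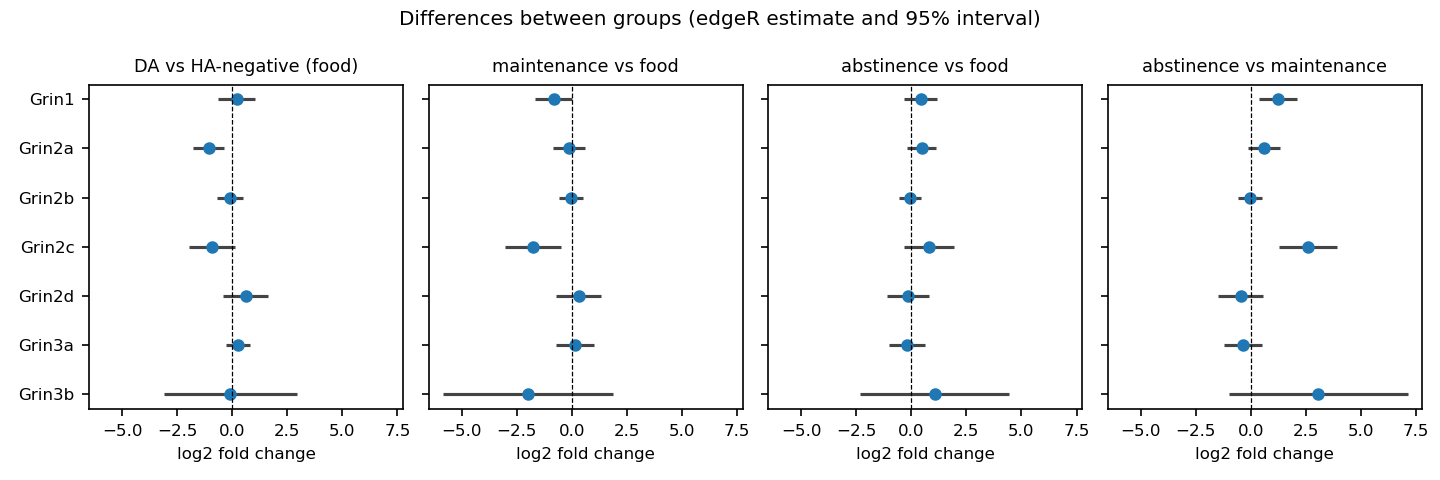
Log2 differences of the 7 subunit genes in the 4 comparisons, with 95% intervals from edgeR's quasi-likelihood fit. Grin2c is at -1.77 for maintenance against food training and at 2.57 for abstinence against maintenance, and Grin2b stays near 0 in all 4.

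The members differ in base composition, which bears on every comparison with maintenance. Transcript GC was 59.4% for Grin1, 62.1% for Grin2c, 63.4% for Grin3b and 65.0% for Grin2d, and 44.8% to 49.2% for Grin2a, Grin2b and Grin3a. Among 681 genes in the GC bin of Grin2c, Grin2d and Grin3b, the median difference between maintenance and food training was -0.67 (quartiles -1.42 to -0.01), and in the bin of Grin1 it was -0.48. Grin2c, at -1.77, and Grin3b, at -1.99, lay below the lower quartile of their bin, and Grin2d, at 0.33, lay above the upper one. After a linear correction for GC, Grin2c stood at -1.38 and Grin1 at -0.42, and after a correction in 20 bins at -1.19 and -0.14. Grin2d also moved upward, from 0.33 to 0.86 and 0.95, which enlarged its positive difference. Grin3b stood at -1.40 and -1.29 after the 2 corrections. For abstinence against maintenance the same corrections gave 2.14 and 1.95 for Grin2c, 0.82 and 0.55 for Grin1, and -1.09 and -1.15 for Grin2d, which was at -0.47 before correction. They gave 2.46 and 2.35 for Grin3b.

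A fit of all 15 libraries with a term shared by the maintenance libraries and HA-negative replicate 2 rests on that 1 HA-negative library to separate the term from the stage. It gave -0.29 for Grin2c between maintenance and food training and turned Grin1 to 0.57, Grin2a to 0.88 and Grin2b to 0.43. For abstinence against maintenance it gave 1.09 for Grin2c and -0.15 for Grin1. Grin3b was at -0.93 in the first of these comparisons and at 2.002 in the second.

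**Figure D4:**
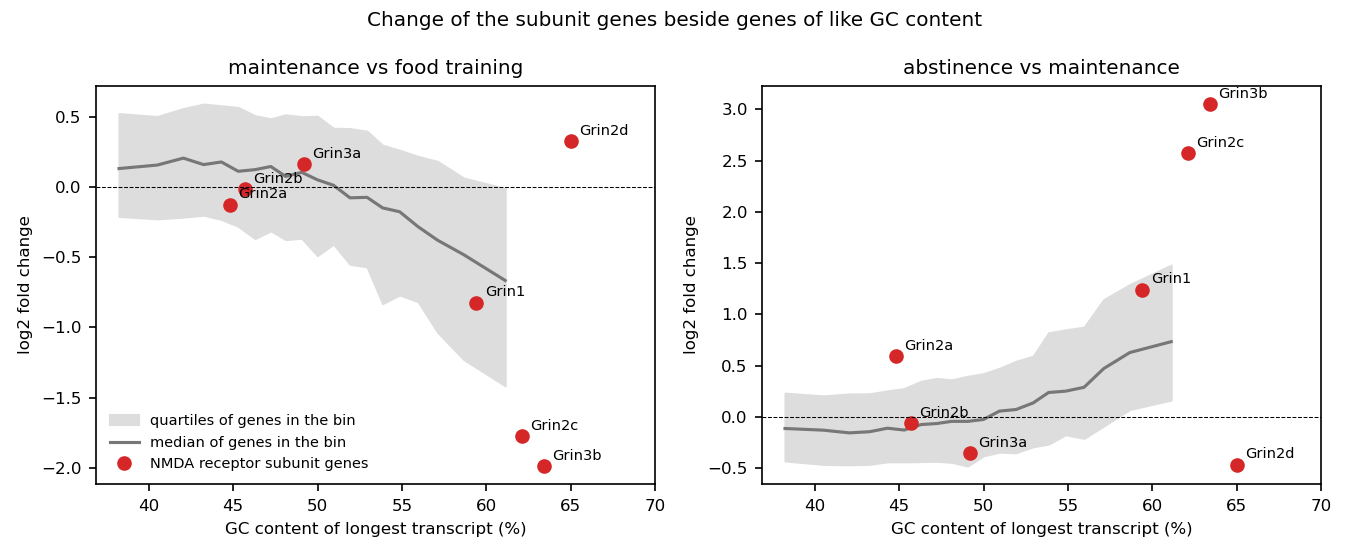
Log2 difference of each subunit gene against its transcript GC content in percent, for maintenance against food training and abstinence against maintenance. The grey line is the median of genes in each of 20 GC bins, drawn at the bin's median GC, and the band spans their quartiles; in the highest bin the median is -0.67 for maintenance against food training and 0.73 for abstinence against maintenance.

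The sequences just before the starts of Grin1 and Grin2c, the 2 members that DESeq2 called between abstinence and maintenance, are shown with their base composition and motifs. They come from RefSeq (GRCm38.p6), cover 250 bases upstream of the start, and run along the minus strand, at chr2:25319188-25319437 for Grin1 and chr11:115267244-115267493 for Grin2c. Capitals mark the E-box CACGTG and the GC box GGGCGG, the letter runs searched on both strands; neighbouring GC boxes may share a base.
Grin1: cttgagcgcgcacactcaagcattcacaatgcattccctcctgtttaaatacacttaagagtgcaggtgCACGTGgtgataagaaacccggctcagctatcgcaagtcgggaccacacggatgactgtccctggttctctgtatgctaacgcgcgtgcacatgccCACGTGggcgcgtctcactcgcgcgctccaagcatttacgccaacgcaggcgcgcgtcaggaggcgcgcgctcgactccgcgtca
Grin2c: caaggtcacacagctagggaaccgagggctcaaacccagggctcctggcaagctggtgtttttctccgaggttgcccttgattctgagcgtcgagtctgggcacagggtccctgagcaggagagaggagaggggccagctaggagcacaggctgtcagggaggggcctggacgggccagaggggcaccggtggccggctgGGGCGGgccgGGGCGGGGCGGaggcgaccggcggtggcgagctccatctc
The Grin1 stretch had 58.8% GC with 27 CpG dinucleotides, 2 E-boxes and 0 GC boxes. The Grin2c stretch had 68.8% GC with 15 CpG dinucleotides, 0 E-boxes and 3 GC boxes, 2 of which share a base. Among 32851 RefSeq promoters of this length, 6.02% held the E-box and 32.7% the GC box. The cAMP response element TGACGTCA, held by 1.55% of promoters, was in neither stretch. A match describes letters, and no binding was measured. Promoters of Grin2d and Grin3b were also matched, but their listed starts did not coincide with a GENCODE transcript start.

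The other 78 pathway genes were read in the same stage fits. None passed edgeR's test in any of the 3 stage comparisons. At an unadjusted p under 0.05 there were 15 of 78 between maintenance and food training, against 11.6% of all genes. There were 18 between abstinence and maintenance (9.92% of all genes) and 3 between abstinence and food training (4.3%). In the same order DESeq2 called 9, 9 and 0 of the 78 genes, against 5.13%, 4.16% and 0.735% of all genes, and limma-voom called 0, 2 and 0, against 0.0472%, 0.157% and 0.0%. The lowest p between maintenance and food training belonged to Ptpn5, which encodes STEP, a phosphatase that dephosphorylates GluN2B: 127 ± 17.5 CPM (SD, n = 3) against 329 ± 58.4 (n = 4), a log2 difference of -1.38 (edgeR adjusted p = 0.0626). Calmodulin gene Calm3 differed by -1.43 (edgeR adjusted p = 0.0796), the Cdk5 activator Cdk5r1 by -1.07 and the kinase Src, which potentiates NMDA currents, by -2.39. The same 4 genes had the lowest p between abstinence and maintenance, at 1.49 for Calm3, 1.34 for Ptpn5, 1.19 for Cdk5r1 and 2.09 for Src, a comparison that shares the maintenance libraries. Between abstinence and food training the lowest p values were those of Dlg1 (-0.80), Slc38a5, Snx27 (0.58) and Csnk2a1 (0.56), each with an edgeR adjusted p of 1.0. Slc38a5 had 0 counts in the 4 food-trained and 3 maintenance dopaminergic libraries, and 0, 4.97, 3.94 and 0.413 CPM in abstinence, where replicate 1 was also at 0.

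For each member, the genes most like it were taken by Pearson's r of log2 CPM over the 11 dopaminergic libraries, among 12889 genes with a mean of at least 100 counts. These are the highest of many values, and the libraries share stage, depth and GC dependence, so they are given as a description. Grin1 was most like Slc6a9 (r = 0.973, Spearman's rho = 0.982), the GlyT1 gene, followed by the sugar transporter gene Slc2a8 (r = 0.952) and the potassium channel subunit gene Kcnab2 (r = 0.95). Slc6a9 itself was at 129 ± 27.9 CPM in food-trained, 72.8 ± 34.3 in maintenance and 170 ± 58.8 in abstinence nuclei. In contrast to Grin1, it was higher in HA-negative than in dopaminergic nuclei, and all 4 HA-negative values (191 to 441.5 CPM) lay above those of food-trained dopaminergic nuclei.

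**Figure D5:**
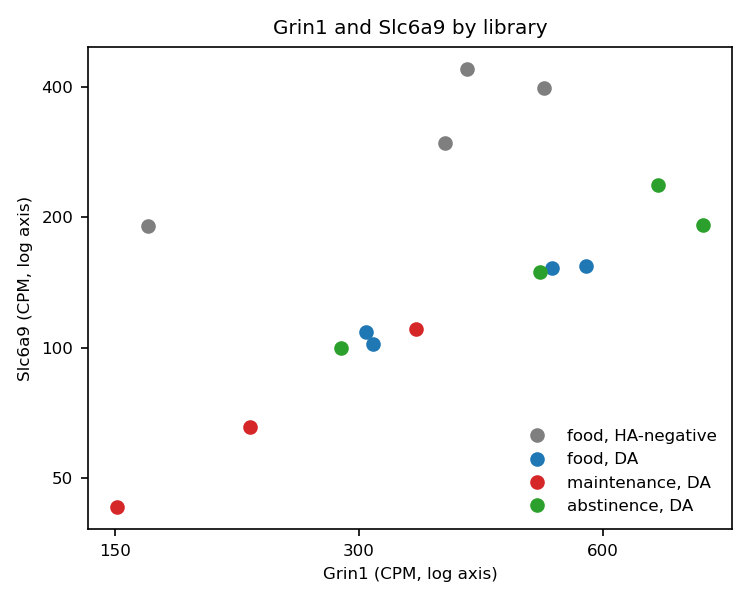
CPM of Grin1 (horizontal) and of Slc6a9 (vertical), both on log axes, with 1 point per library coloured by group. The 11 dopaminergic libraries lie along 1 line (r = 0.973), and the HA-negative libraries lie at higher Slc6a9 (191 to 441.5 CPM) for their Grin1.

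Grin2a was most like Atp13a1 (r = 0.928), Grin2b like Ubr4 (r = 0.89), Grin2c like Med12l (r = 0.952) and Grin2d like the thyroid hormone receptor gene Thra (r = 0.95). Grin3a was most like the amino acid transporter gene Slc6a15 (r = 0.929) and Grin3b like Mypop (r = 0.973). The next in order were Pigo and Tspan4 for Grin2a, Nfat5 and Tcf7l2 for Grin2b, Pitpnm1 and LOC108167694 for Grin2c, Timp2 and Flad1 for Grin2d, Pcdhb4 and Slc38a1 for Grin3a, and Acap3 and Raver1 for Grin3b. No member was among the nearest genes of another. Among the members, the highest r was 0.699 between Grin2b and Grin2d, followed by 0.554 between Grin1 and Grin2a, and the lowest was -0.494 between Grin3a and Grin3b.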

How the data were processed

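The authors deposited whole-number counts per gene for 15 libraries. Trim Galore 0.6.7, cutadapt 1.18, STAR 2.7.10a, StringTie 2.1.5, DESeq2 1.38.3 and mm10/GRCm38 are named per the submitters' processing notes, without roles; the annotation and use of strand are not given in the sources used here. A second deposited table held 10 of the same columns, with 0 cells different, and was not used. Libraries were made with an amplifying low-input kit per the labels' protocols, without molecular identifiers, so depth covers counting error only.

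The tests were run with edgeR 4.0.16 in R 4.3.3 (filterByExpr, TMM scaling, quasi-likelihood F-test, two-sided, Benjamini-Hochberg adjustment over all genes tested, threshold 0.05); code was tested on simulated data. The population comparison used 8 libraries, the stage comparisons 1 fit of 11. CPM use TMM factors of 15 libraries. Intervals are approximate, from the coefficient and its F statistic, and are rough for Grin3b. Transcript lengths and GC come from GENCODE M21, where 26773 of 35976 symbols matched, 10 by an older symbol. DESeq2 1.42.0, limma 3.58.1 with voom weights, other filters and scalings, GC corrections, a replicate block and left-out libraries were alternatives; the figures were drawn in Python 3.11.15.

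Groups came from sample titles. The labels do not say that replicates of different groups share animals. The p-values set group differences against the spread between these samples, each a pool of 2 mice. Members, pathway lists, markers and tests were chosen with earlier results of these data known. All 7 members are named in each comparison, as are up to 8 pathway genes in each direction past the threshold (the 4 lowest p where none passed) and the 3 genes most like each member by r.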

Additional observations from a re-analysis of the deposited data

Results flagged for a closer look

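Grin2b in abstinence nuclei had 1 library far from the others. Replicate 3 was at 225.7 CPM, and the other 3 libraries of the group lay at 160.0, 166 and 156 CPM. It was the single such case among 21 sets of 4 libraries examined (7 genes in the groups of 4), and chance gives about 1 in 20.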

How the results depend on the processing

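No subunit gene passed the threshold in the main tests, so the counts that moved are from 0. Between dopaminergic and HA-negative nuclei 1 member (Grin2a) passed with DESeq2, 1 with a minimum of 10 counts in every library and 1 in a fit of all 15 libraries; leaving out 1 library gave 0 to 1. DESeq2 called 1 member between maintenance and food training (Grin2c) and 2 between abstinence and maintenance (Grin1, Grin2c); leaving out 1 library gave 0 in each stage comparison, and limma-voom called 0 members in all 4 comparisons. The minimum of 10 counts removed Grin3b.

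Differences that changed sign included the Grin1 ones between maintenance and the other stages (-0.82 and 1.24). Between dopaminergic and HA-negative nuclei, Grin3b went to 0.079 with the linear GC correction (and, without a change of sign, to -1.52 with voom and -1.10 with the replicate block), and with 1 library left out Grin1 ranged from -0.048 to 0.39, Grin2b from -0.26 to 0.071 and Grin3b from -0.54 to 0.33. Between maintenance and food training, the term shared with HA-negative replicate 2 turned Grin1 to 0.57, Grin2a to 0.88 and Grin2b to 0.43. Grin2b was also 0.016 with upper quartile scaling and 0.066 with voom, and Grin3a was -0.0002 with voom. With 1 library left out Grin2a ranged from -0.28 to 0.045, Grin2b from -0.16 to 0.16 and Grin3a from -0.23 to 0.35. Between abstinence and food training, voom turned Grin2b to 0.0295 and Grin2d to 0.13, and leaving out 1 library gave -0.22 to 0.098 for Grin2b, -0.42 to 0.27 for Grin2d and -0.40 to 0.031 for Grin3a. Between abstinence and maintenance, the shared term turned Grin1 to -0.15 and Grin2a to -0.42, GC corrections turned Grin2b to 0.0645 (linear) and 0.091 (binned), and Grin3a ranged from -0.56 to 0.034 with 1 library left out. The causes were not tested.

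With the replicate number as a block, 0 members passed in any comparison; Grin2b between maintenance and food training became 0.013, and with the linear GC correction Grin2b between abstinence and maintenance became 0.0385. Same-numbered libraries of the 2 populations correlated at 0.0211 to 0.0689 in their deviations. In each population, 3 of 4 libraries were closest to their own number. Same-numbered libraries of different stages correlated at -0.0663 to 0.0305. Whether equal numbers mark shared pools of mice cannot be told from the labels or these values.

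Over all genes, 2534 passed between the populations, against 3868 with DESeq2, 4266 with voom, 1643 with the minimum of 10 counts, and 775 or 837 with the block without or with GC correction. Between maintenance and food training 25 passed, against 977 with DESeq2, 109 with the minimum, 9 with voom, 11 with binned GC, 0 or 1 with the block, 1 with only these groups and 0 with the shared term. Between abstinence and maintenance 34 passed, against 793 with DESeq2, 69 with the minimum, 15 with all 15 libraries, 18 with binned GC, 22 with upper quartile scaling or only these groups, 2 with either block and 1 with the shared term. Leaving out maintenance replicate 1, 2 or 3 gave 5, 78 and 7 genes between maintenance and food training and 6, 73 and 7 between abstinence and maintenance; leaving out food-trained replicate 3 or 4 gave 43 and 12 in the first, and abstinence replicate 1, 2 or 3 gave 14, 12 and 6 in the second. Between abstinence and food training DESeq2 called 140, and edgeR 0 with 819 at an unadjusted p under 0.05. Groups of 3 or 4 leave intervals of more than 1 log2 unit on either side for Grin2c and Grin3b in all 4 comparisons and for Grin2d in all but abstinence against food training.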

Other observations

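Grin1os, the gene antisense to Grin1, was looked at because it overlaps a member, and its values were seen before it was chosen. It had 2.18, 1.52, 1.71 and 1.70 CPM in the 4 abstinence libraries, against 0.575, 1.39, 0.147 and 0.196 in food-trained and 0.599, 0.241 and 0.0486 in maintenance dopaminergic nuclei. All 4 abstinence values lay above those of the other dopaminergic groups, as did 2.37% of genes against food training and 7.56% against maintenance. The log2 difference from food training was 1.62 (SE 1.58, edgeR adjusted p = 1.0) and from maintenance 2.57 (SE 1.83, edgeR adjusted p = 0.794), so neither passed the test. Its counts are low, and if strand was not used, reads of Grin1 and Grin1os in their shared exons cannot be told apart.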
